A study of Homo sapiens with 4 samples.

Results

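The transcription factors that drive epithelial-mesenchymal transition (EMT), the mesenchymal filament protein vimentin and the epithelial splicing regulators were followed in PC-3 prostate cancer cells and in a bone-metastatic derivative of them, PC-3-BM. The set comprised 10 genes, ZEB1, ZEB2, SNAI1, SNAI2, TWIST1, TWIST2, PRRX1, VIM, ESRP1 and ESRP2. A gene was represented by a probe set that the platform annotation gives exactly 1 symbol, equal to the gene's, and by the brightest such probe set over the 4 arrays where there were several. By this rule 9 of the 10 genes were measured, among 18417 genes with a 1-symbol probe set. ESRP1 had no such probe set and was not analysed here.

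During EMT, epithelial cells lose their junctions and polarity and become motile. The ZEB, SNAI and TWIST factors bind E-box motifs in the promoters of epithelial genes such as CDH1 and repress them, and vimentin replaces keratins as the main intermediate filament. ESRP1 and ESRP2 are RNA-binding proteins of epithelial cells that select the epithelial isoforms of transcripts such as FGFR2 and CD44, and ZEB1 is known to repress the ESRP genes.

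PC-3, called PC3-P in the study, is the parental line, established from a prostate cancer metastasis in bone, and is labelled as having poor metastatic potential. PC-3-BM, labelled as having high potential, was recovered from the long bones of athymic nude mice after repeated rounds of intracardiac injection, then selected with geneticin, grown in culture and enriched by sorting on GFP, a fluorescent reporter protein. The study calls it a subclone, so it stands for 1 selected derivative, and both lines carried a firefly luciferase and GFP reporter. Whole-genome expression was measured on 4 Affymetrix Human Gene ST arrays of 1 colour, 2 for each line, and the comparison asks how transcript levels in the bone-seeking derivative differ from those of its parent. The labels do not say whether the 2 arrays of a line came from separate cultures, so the spread behind each p-value is that between arrays and may be purely technical. The labels also describe growth in immunocompromised mice where the methods describe culture, and the state of the cells when RNA was taken is not settled.

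All levels below are the deposited log2 expression values, and a difference is PC-3-BM minus PC-3 on that log2 scale. Higher and lower calls are at an adjusted p below 0.05 in limma's moderated test over all 33297 probe sets. The median of the values was 6.69 and their lower quartile 5.02, and array medians ran from 6.66 to 6.72. Of all probe sets 23.2% were called, with 11.6% higher and 11.6% lower in PC-3-BM. Among genes with a 1-symbol probe set 29.6% were called, with 14.8% higher and 14.8% lower. A level cannot be set against that of another gene on this platform, because probe sets differ in how strongly they bind.

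Markers of other cells that a bone harvest could carry, leukocyte, endothelial and stromal or osteoblast genes, were checked together with genes of the PC-3 line. PTPRC of leukocytes (3.70 to 4.05, adjusted p = 0.111) and DCN of stromal cells (3.65 to 3.82) lay under the lower quartile on all 4 arrays, while CD14 (6.28 to 6.40), CSF1R (5.92 to 6.00), PDGFRB (5.98 to 6.09), COL1A2 (6.36 to 6.50) and COL3A1 (6.52 to 6.66) lay above it and did not pass. KDR, a receptor that marks endothelium, was bright in both lines, at 10.94 and 10.80 in PC-3 and at 10.76 and 10.65 in PC-3-BM (adjusted p = 0.265). Of 6 leukocyte markers CD68 rose, a lysosomal protein of macrophages that many tumour cells also make, from 10.66 and 10.66 to 11.43 and 11.32. At an unadjusted limma p below 0.05, 2 of the 6 were higher in PC-3-BM, CD68 and PTPRC, and 0 were lower. With adjustment over 1-symbol probe sets only, 2 of the leukocyte markers were called higher. The summed linear signal of this list was 1840 on both PC-3 arrays and 2790 to 2980 on the PC-3-BM arrays, and most of it is CD68 alone. Of 5 endothelial markers PECAM1 rose by 0.45, while the summed signal was 1980 to 2160 in PC-3 and 1830 to 1950 in PC-3-BM, most of it KDR alone. Of 6 stromal and osteoblast markers LUM rose by 0.53, from a level under the lower quartile, with summed signals of 300 to 301 and 303 to 311. Their part in the results below was not tested. KRT8, KRT18 and EPCAM, keratins and an adhesion protein of epithelial cells, were measured in PC-3 at 10.97, 10.77 and 6.90 and were lower in PC-3-BM, at 8.94, 10.37 (a fall of 0.40 for KRT18, adjusted p = 0.0322) and 5.60. KLK3, which PC-3 cells are known to lack, was at 5.72 to 6.00 over the 4 arrays.

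Across the 9 measured genes, 1 transcription factor was higher in PC-3-BM, ZEB1, and 1 splicing regulator was lower, ESRP2. The other 7, including the remaining 6 EMT factors and vimentin, did not pass. The 2 calls of 9 stand beside the 29.6% of all genes called. The median size of the difference over the 9 genes was 0.08, against 0.19 over all 18417 genes, and their median signed difference was -0.02, against -0.04. None of the 9 passed the thresholds that the study states, applied here to this fit, an adjusted p below 0.001 with a difference above 2, and 2 had an unadjusted p below 0.05. None of them lay under the lower quartile in either line. KLK3, which PC-3 cells are known to lack, did not either, so such a level does not show that a gene was transcribed.

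**Figure D1:**
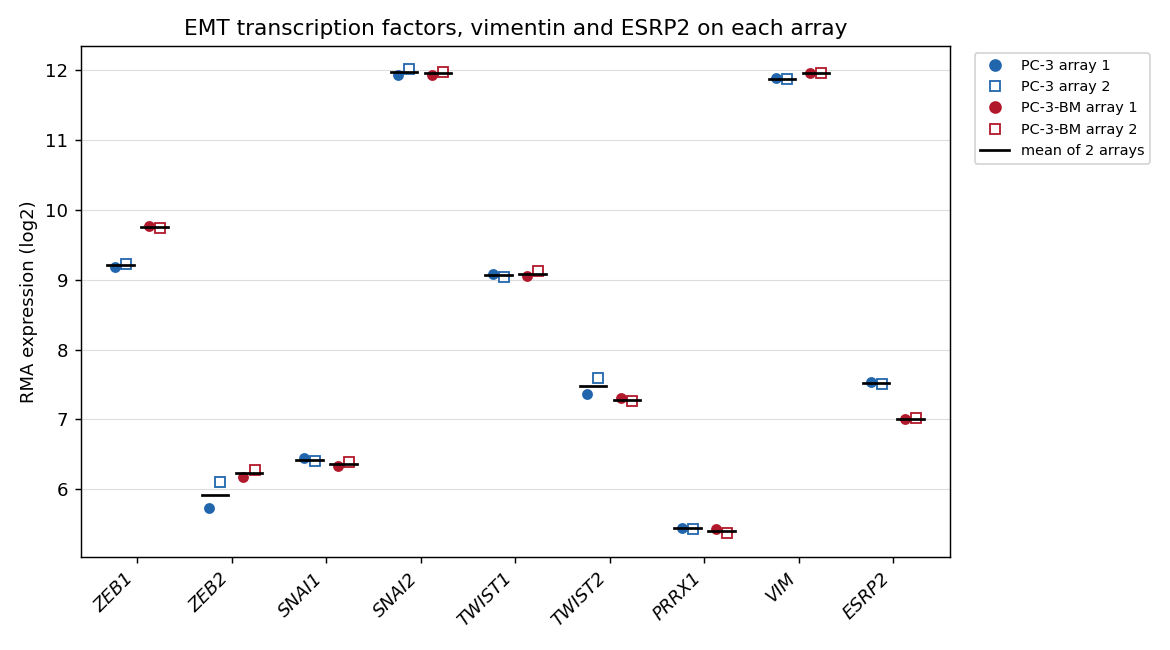
Log2 expression of the 9 measured EMT transcription factor, vimentin and splicing regulator genes on each array, with filled circles for array 1, open squares for array 2 and black lines for their mean, PC-3 in blue and PC-3-BM in red. ZEB1 sits at 9.18 and 9.23 in PC-3 and at 9.76 and 9.74 in PC-3-BM, and ESRP2 moves the other way, from 7.53 and 7.50 to 7.00 and 7.02.

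ZEB1, the zinc-finger E-box repressor of epithelial genes, was at 9.18 and 9.23 on the PC-3 arrays and at 9.76 and 9.74 on the PC-3-BM arrays. Both PC-3-BM arrays were above both PC-3 arrays. The mean rose from 9.21 ± 0.04 to 9.75 ± 0.01 (SD, n = 2 arrays each), a difference of 0.54 (SE 0.07, 95% interval 0.36 to 0.71), or 1.45-fold, with a limma adjusted p of 0.00824. The difference was 0.51 to 0.57 under the alternatives run, and the adjusted p rose to 0.068 without variance moderation. With each array left out in turn the difference was 0.51 to 0.56. Such fits leave 1 array in a line and call fewer probe sets, and the call of ZEB1 was not kept in all of them.

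ZEB1 lies on chromosome 10. Because ZEB1 and the SNAI factors recognise the E-box CACCTG, the 250 bases before a gene's start were read for it in RefSeq (GRCh38.p14) on both strands, where it shows as CACCTG or CAGGTG. Of 35116 such windows, 17.5% held it, and 61.8% held the general E-box CANNTG, which includes it. ZEB1 itself has 7 listed windows, 2 of them with a match, and the window at chr10:31318167-31318416 on the plus strand is shown because it is the regulator that rose; capitals mark the match.
ZEB1: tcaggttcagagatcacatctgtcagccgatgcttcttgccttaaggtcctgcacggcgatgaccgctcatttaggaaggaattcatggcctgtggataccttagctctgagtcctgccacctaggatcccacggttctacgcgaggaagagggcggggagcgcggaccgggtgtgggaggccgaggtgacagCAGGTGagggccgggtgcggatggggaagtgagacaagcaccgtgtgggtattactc
The RefSeq windows of ZEB2, VIM, TWIST2 and PRRX1 held no CACCTG. Such letters describe the window and are not evidence of binding.

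ZEB2, the paralogue of ZEB1 with the same kind of zinc fingers, was at 5.73 and 6.11 in PC-3 and at 6.18 and 6.28 in PC-3-BM. The arrays of the lines did not overlap, but the PC-3 arrays lay further apart than the means of the lines, and the difference of 0.31 (SE 0.14, 95% interval -0.05 to 0.68) did not pass (adjusted p = 0.188). A further ZEB2 probe set, with values from 3.45 to 3.86 and thus under the lower quartile on all arrays, differed by -0.21 (adjusted p = 0.235). The probe sets of ZEB2 disagreed in sign, and their mean differed by 0.05.

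SNAI1 and SNAI2 encode the zinc-finger factors Snail and Slug, the former a classical repressor of E-cadherin and the latter active in basal and mesenchymal cells. SNAI1 was at 6.45 and 6.40 in PC-3 and at 6.34 and 6.39 in PC-3-BM, a difference of -0.06 (95% interval -0.24 to 0.12, adjusted p = 0.595). SNAI2 was at 11.93 and 12.01 in PC-3 and at 11.93 and 11.97 in PC-3-BM, with overlapping arrays and a difference of -0.02 (95% interval -0.21 to 0.16, adjusted p = 0.855). The intervals reach to -0.24 for SNAI1 and to -0.21 for SNAI2, so falls up to those sizes lie within them.

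The basic helix-loop-helix factors TWIST1 and TWIST2 act in mesoderm and in invasive tumour cells. TWIST1 was at 9.08 and 9.04 in PC-3 and at 9.05 and 9.12 in PC-3-BM, overlapping arrays with a difference of 0.02 (95% interval -0.16 to 0.20, adjusted p = 0.871). TWIST2 was at 7.36 and 7.59 in PC-3 and at 7.30 and 7.27 in PC-3-BM, without overlap and with a difference of -0.19 (95% interval -0.45 to 0.07, adjusted p = 0.245). The PC-3 arrays of TWIST2 differed from each other by more than the distance from the lower of them to either PC-3-BM array.

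PRRX1, a homeobox factor of mesenchyme that can drive EMT, was at 5.45 and 5.44 in PC-3 and at 5.44 and 5.37 in PC-3-BM, a difference of -0.04 (95% interval -0.22 to 0.15, adjusted p = 0.759). It was dim on all 4 arrays, and the arrays overlapped. VIM, which encodes vimentin, was at 11.88 and 11.87 in PC-3 and at 11.96 and 11.95 in PC-3-BM. The arrays of VIM did not overlap, and its difference of 0.08 (95% interval -0.10 to 0.25) did not pass (adjusted p = 0.465). The interval of VIM ends at 0.25, so a larger rise lies outside it.

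ESRP2, the epithelial splicing regulator, was at 7.53 and 7.50 on the PC-3 arrays and at 7.00 and 7.02 on the PC-3-BM arrays. Both PC-3-BM arrays were below both PC-3 arrays. The mean fell from 7.52 ± 0.02 to 7.01 ± 0.01 (SD, n = 2 arrays each), a difference of -0.50 (SE 0.07, 95% interval -0.68 to -0.33), or 0.705-fold, with a limma adjusted p of 0.00922. Under the alternatives run the difference was -0.52 to -0.47, and the adjusted p was 0.0637 without moderation. With each array left out in turn the difference was -0.52 to -0.49, and the call of ESRP2 was not kept in all of these fits.

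**Figure D2:**
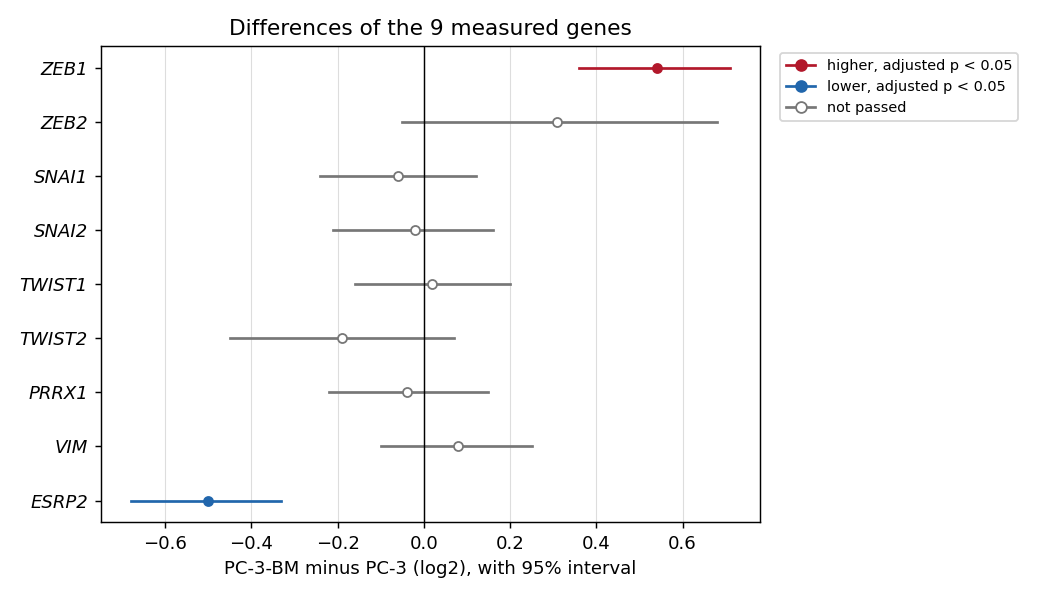
Log2 difference, PC-3-BM minus PC-3, of each measured gene, with 95% intervals from the limma fit and calls at an adjusted p below 0.05 in red (higher) or blue (lower). ZEB1 at 0.54 and ESRP2 at -0.50 are the calls, and the intervals of the other 7 genes include 0.

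To set each gene beside its surroundings on the chromosome, the 5 measured genes on each side of every gene were read in RefSeq order. This reading is a description by position, and neighbours are named from values already seen unless stated. Beside the counts below, 14.8% of all genes with a 1-symbol probe set were called higher and 14.8% lower. Around ZEB1, 7 of 10 neighbours were higher and 0 lower, with a median difference of 0.44, beside the 0.54 of ZEB1 itself. They included SVIL (0.46), JCAD (0.48), ZNF438 (0.48), ARHGAP12 (0.88), ITGB1 (0.45) and NRP1 (0.44), while KIF5B was at 0.07 and LYZL2 at -0.18. ARHGAP12 alone of the 7 kept its call without each array in turn. The part of chromosome position in the difference of ZEB1 was not tested.

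Around ZEB2, 5 of 10 neighbours were higher and 0 lower, with a median of 0.25 and the largest value at KYNU (0.92). Around ESRP2, 3 of 10 neighbours were higher and 0 lower, with a median of -0.04. The 3 called, PLA2G15 (0.57), SLC7A6 (0.52) and SLC7A6OS (0.49), follow it directly on chromosome 16. Around VIM, 1 was higher and 3 were lower, and around TWIST1 4 were higher and 0 lower. Of all neighbours, those called with a difference above 1 in size, the naming rule for them, were ITGB8 (1.05), an integrin subunit beside TWIST1, and MCM4 (-1.23), a replication helicase subunit beside SNAI2. The remaining genes had 1 higher and 1 lower (SNAI1), 1 and 3 (SNAI2), 2 and 1 (TWIST2), and 2 and 0 (PRRX1).

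**Figure D3:**
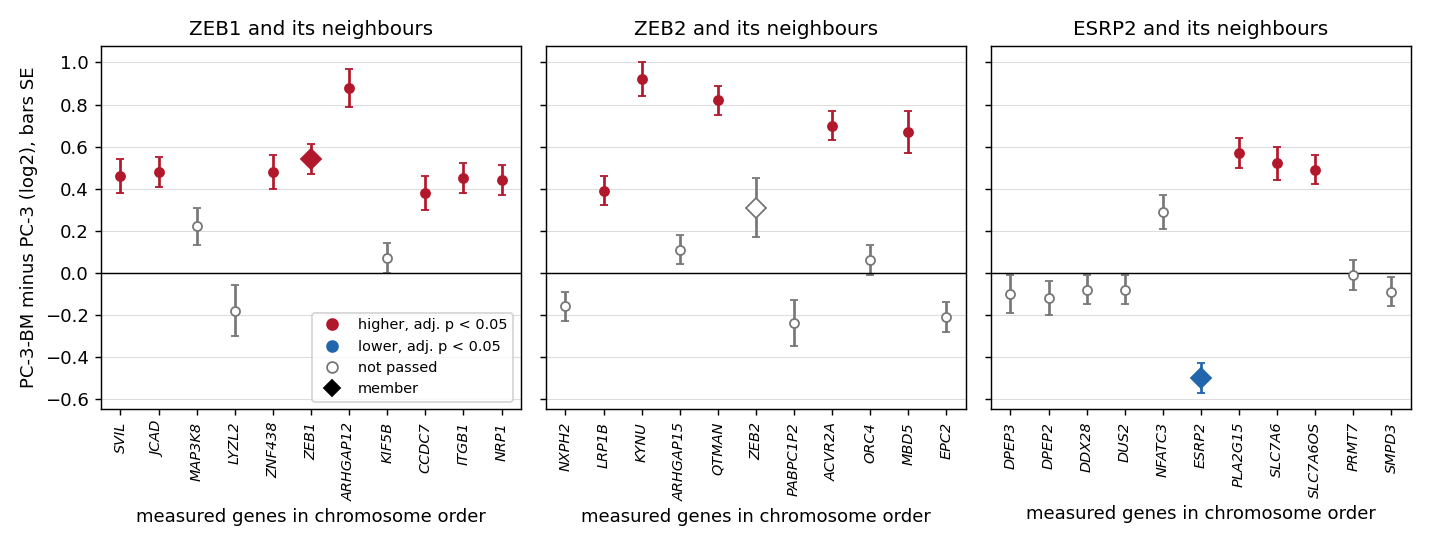
Log2 difference, PC-3-BM minus PC-3, of ZEB1, ZEB2 and ESRP2 (diamonds) and of the 5 measured genes on each side of each in chromosome order, with SE bars, red for higher, blue for lower and open symbols for genes that did not pass. Most genes around ZEB1 lie above 0, with a median of 0.44, while the 3 genes directly after ESRP2 lie above 0 and ESRP2 itself lies at -0.50.

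Other transcription factors of EMT were read from a list of 27, of which 24 were measured. Of these 4 were higher, 4 lower and 16 did not pass, or 33.3% called against 29.6% of all genes, with a median difference of -0.06. The same 29.6% stands beside the share called in each list below. The largest differences were in inhibitors of DNA binding, which lack a DNA-binding region and hold E proteins, the partners of TWIST factors, in inactive dimers. ID1 was at 11.84 and 11.90 in PC-3 and at 9.82 and 10.19 in PC-3-BM, and fell by 1.86 (SE 0.14, adjusted p = 0.0027). ID2 was at 10.48 and 10.38 in PC-3 and at 8.95 and 8.70 in PC-3-BM, and fell by 1.60 (SE 0.11, adjusted p = 0.00243). ID3 was at 8.71 and 8.74 in PC-3 and at 7.49 and 7.76 in PC-3-BM, and fell by 1.10 (SE 0.11, adjusted p = 0.00489). The arrays of the lines did not overlap for any of these 3, and each kept its call without each array in turn. ID4, chosen after its values were seen, was at 5.80 and 5.59 in PC-3 and at 5.70 and 5.86 in PC-3-BM, with overlapping arrays and an adjusted p of 0.632.

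TCF4 is an E protein that can itself induce EMT. It was at 7.37 and 7.65 in PC-3 and at 8.36 and 8.33 in PC-3-BM, and rose by 0.83 (SE 0.11, adjusted p = 0.00931, or 0.0548 without the first PC-3-BM array). The other E proteins were chosen after their values were seen. TCF12 rose by 0.43 (SE 0.09, adjusted p = 0.0312), a call lost when any array was left out, and TCF3 differed by -0.18 (SE 0.07, adjusted p = 0.136). Of the 8 calls of this list, RUNX2, ID1, ID2 and ID3 were kept without each array in turn.

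**Figure D4:**
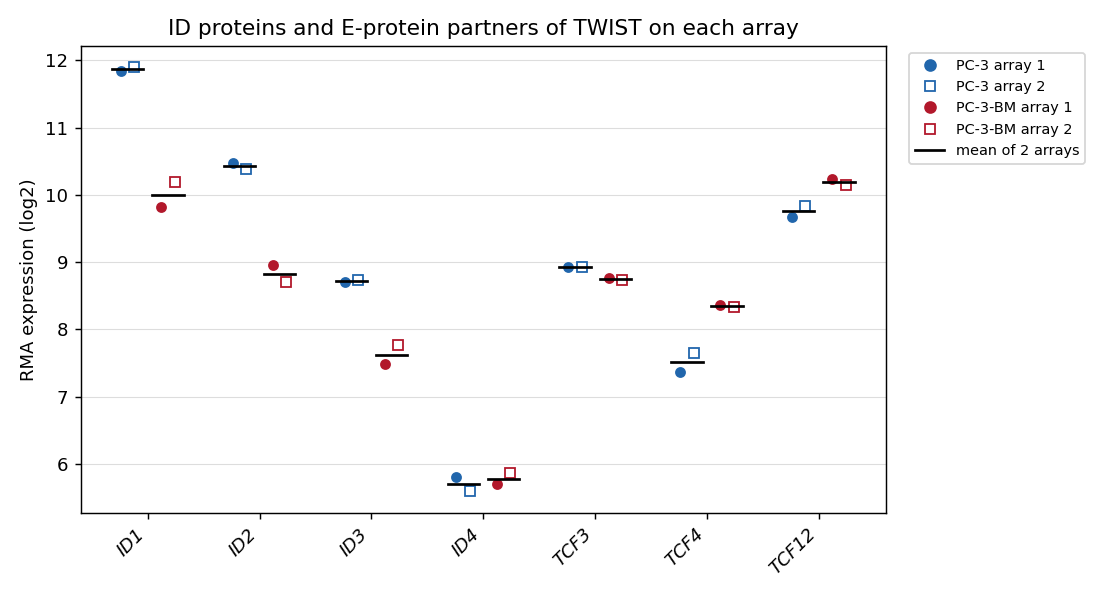
Log2 expression of the ID inhibitors and the E proteins on each array, with filled circles for array 1, open squares for array 2 and black lines for their mean, PC-3 in blue and PC-3-BM in red. Both PC-3-BM arrays of ID1 (9.82 and 10.19), ID2 and ID3 lie below the PC-3 arrays, and those of TCF4 (8.36 and 8.33) and TCF12 lie above them.

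Epithelial genes that the EMT factors are known to repress were lower in PC-3-BM where they were called. Of 27 listed, 26 were measured, 0 were higher, 10 lower and 16 did not pass, or 38.5% called, with a median difference of -0.24. KRT8, a keratin of simple epithelia, was at 11.02 and 10.93 in PC-3 and at 8.83 and 9.05 in PC-3-BM, and fell by 2.03 (SE 0.10, adjusted p = 0.0015). EPCAM, an epithelial adhesion molecule, was at 6.81 and 6.99 in PC-3 and at 5.56 and 5.64 in PC-3-BM, and fell by 1.30 (SE 0.09, adjusted p = 0.00266). CLDN3, a tight junction protein, was at 9.39 and 9.02 in PC-3 and at 8.04 and 8.05 in PC-3-BM, and fell by 1.16 (SE 0.13, adjusted p = 0.00657). These 3 were the calls of the list kept without each array in turn, and TSPAN1, a tetraspanin, fell by 0.45 (SE 0.08, adjusted p = 0.0183). CDH1, the E-cadherin gene and best-known target, chosen after its values were seen, was at 5.10 and 4.95 in PC-3 and at 4.96 and 5.07 in PC-3-BM. Its values lay at the lower quartile, and its difference of -0.01 did not pass (adjusted p = 0.971). At an unadjusted limma p below 0.05, 2 of the 26 were higher and 15 lower. The 2 were MARVELD2, which rose by 0.38 (adjusted p = 0.0514), and PATJ, which rose by 0.22 (adjusted p = 0.0967). Both were chosen after their values were seen. With each array centred on its median the list had 1 higher and 6 lower.

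The E-box letters of this list are shown for 3 genes, 2 with a window rich in CACCTG and KRT8, with the largest fall, whose listed window lacks it. CRB3, a polarity protein, has 5 matches at chr19:6464021-6464270 (plus strand). CLDN7, a claudin, has 2 listed windows, with 4 matches at chr17:7262479-7262728 (minus strand) and 0 at chr17:7263214-7263463. KRT8 has 0 at chr12:52926470-52926719 (minus strand), its 1 listed window. Starts of a gene outside the listed windows were not read. Windows are 5′ to 3′ along the gene, from RefSeq GRCh38.p14, with CACCTG and CAGGTG in capitals.
CRB3: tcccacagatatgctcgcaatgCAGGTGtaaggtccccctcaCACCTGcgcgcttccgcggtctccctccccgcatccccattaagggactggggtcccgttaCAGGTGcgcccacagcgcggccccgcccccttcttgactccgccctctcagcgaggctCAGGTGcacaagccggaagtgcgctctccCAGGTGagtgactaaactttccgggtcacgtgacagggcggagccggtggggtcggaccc
CLDN7: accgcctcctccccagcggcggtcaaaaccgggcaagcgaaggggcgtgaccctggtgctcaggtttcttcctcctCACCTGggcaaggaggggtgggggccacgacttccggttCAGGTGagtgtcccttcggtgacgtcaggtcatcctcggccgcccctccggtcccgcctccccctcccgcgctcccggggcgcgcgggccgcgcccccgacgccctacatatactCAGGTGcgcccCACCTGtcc
KRT8: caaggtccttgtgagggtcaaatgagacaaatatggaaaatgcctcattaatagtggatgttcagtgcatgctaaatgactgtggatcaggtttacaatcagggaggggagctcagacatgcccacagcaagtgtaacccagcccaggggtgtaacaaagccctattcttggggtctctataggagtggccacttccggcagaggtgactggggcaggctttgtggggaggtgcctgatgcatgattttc
CRB3 was at 7.00 and 6.89 in PC-3 and at 6.74 and 6.76 in PC-3-BM, and its difference of -0.20 did not pass (adjusted p = 0.134). CLDN7 was at 5.92 and 5.99 in PC-3 and at 5.61 and 5.69 in PC-3-BM and fell by 0.31 (adjusted p = 0.0442), a call lost with median centring (0.0705) and with a further quantile normalization (0.0578). CRB3 and CLDN7 were chosen after their values were seen. Of the 14 measured genes of the list with a RefSeq window, 9 held the motif in at least 1 listed window. A gene could have several listed windows, up to 5, so the 17.5% of all windows is not a like share for this count. Of these 9, 0 were higher and 2 lower, with a median difference of -0.12. The other 5, KRT8 among them, had 0 higher and 3 lower, with a median of -0.45.

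Mesenchymal genes induced in EMT were higher in PC-3-BM in 8 cases and lower in 1 of 21 measured (22 listed), while 12 did not pass, or 42.9% called, with a median difference of 0.14. LOX, an enzyme that cross-links collagen, was at 6.40 and 6.13 in PC-3 and at 8.30 and 8.04 in PC-3-BM, and rose by 1.91 (SE 0.14, adjusted p = 0.00271). ITGA5, a fibronectin receptor subunit, was at 8.84 and 8.80 in PC-3 and at 10.17 and 10.13 in PC-3-BM, and rose by 1.33 (SE 0.07, adjusted p = 0.0016). COL1A1, a chain of type I collagen, rose by 0.68 (SE 0.07, adjusted p = 0.00586). SPARC, a matrix glycoprotein of bone and mesenchyme, was the 1 lower call of the list, at 10.35 and 10.08 in PC-3 and at 8.91 and 8.83 in PC-3-BM, and fell by 1.34 (SE 0.11, adjusted p = 0.00347). These 4 of the 9 calls were kept without each array in turn.

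**Figure D5:**
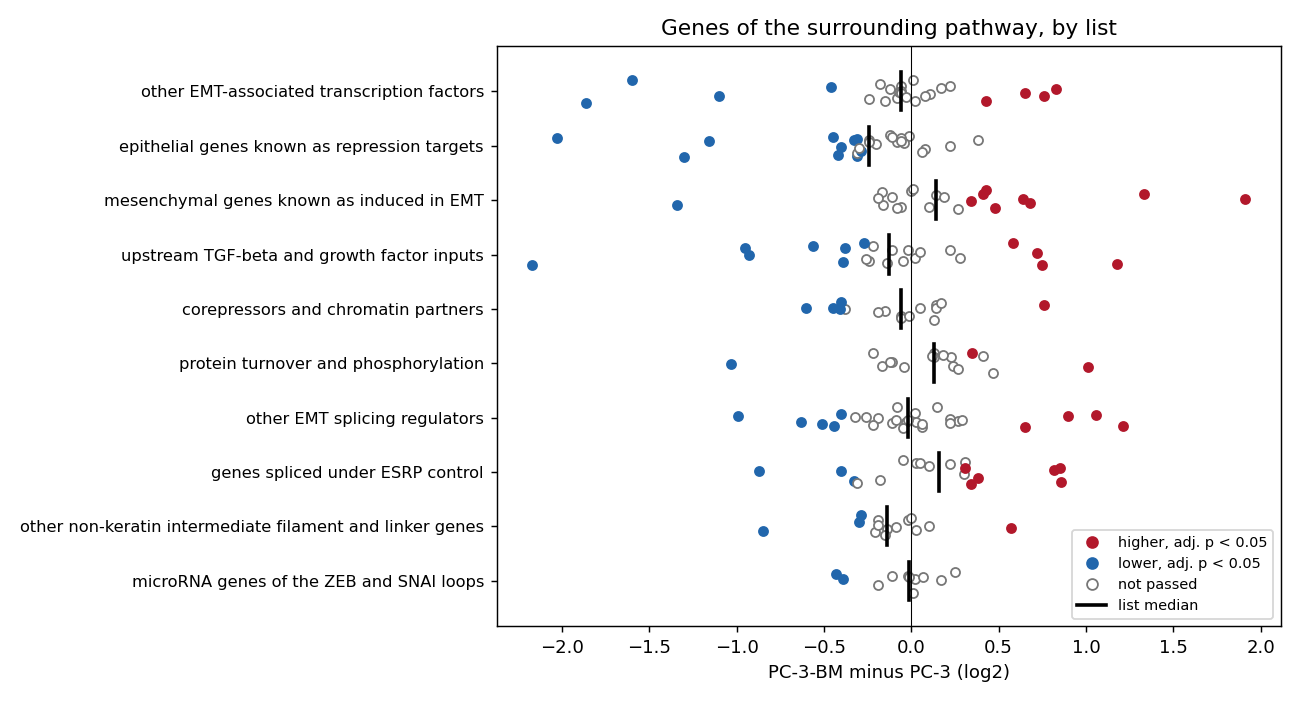
Log2 difference, PC-3-BM minus PC-3, of every measured gene of the EMT pathway lists, a point per gene, red for higher, blue for lower and open where the test was not passed, with a black line at the list's median. Epithelial repression targets have 10 lower and 0 higher calls with a median of -0.24, and mesenchymal genes 8 higher and 1 lower with a median of 0.14.

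Inputs that induce the EMT factors, transforming growth factor beta (TGF-beta) and other signals, had 4 higher, 7 lower and 11 not passing of 22, or 50.0% called, with a median difference of -0.13. WNT5A, a secreted Wnt ligand, was at 7.04 and 7.07 in PC-3 and at 5.01 and 4.77 in PC-3-BM, where it lay under the lower quartile, and fell by 2.17 (SE 0.10, adjusted p = 0.00135). TGFBR3, the TGF-beta coreceptor betaglycan, rose by 1.18 (SE 0.09, adjusted p = 0.00271). TGFB3, a TGF-beta ligand, fell by 0.95 (SE 0.08, adjusted p = 0.00327), and SKIL, an inhibitor of SMAD proteins that TGF-beta itself induces, fell by 0.93 (SE 0.12, adjusted p = 0.00846). The calls kept without each array in turn were TGFB3, TGFBR1, TGFBR3, EGFR and WNT5A, 5 of 11.

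Corepressors and chromatin partners of the factors had 1 higher, 4 lower and 11 not passing of 16, or 31.2% called. CTBP2, a corepressor that ZEB1 recruits, rose by 0.76 (SE 0.07, adjusted p = 0.00471) and was the 1 call kept without each array in turn. Its paralogue CTBP1, chosen after its values were seen, differed by 0.14 and did not pass (adjusted p = 0.231). SUZ12 and EZH2, subunits of the Polycomb complex that methylates histone H3, fell by 0.60 (adjusted p = 0.00637) and 0.41 (adjusted p = 0.04, or 0.0551 with median centring), and KAT2B, a histone acetyltransferase, fell by 0.45 (adjusted p = 0.0174). Of 17 genes for turnover of the factors' proteins 2 were higher and 1 lower, or 17.6% called. BTRC, a ubiquitin ligase subunit that recognises phosphorylated Snail, rose by 1.01 (SE 0.07, adjusted p = 0.00255), FBXL5 rose by 0.35 (adjusted p = 0.0271) and FBXO45, a ligase subunit reported for several EMT factors, fell by 1.03 (SE 0.08, adjusted p = 0.00299). BTRC and FBXO45 kept their calls without each array in turn.

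Splicing regulators other than the ESRP genes had 4 higher, 5 lower and 19 not passing of 28, or 32.1% called, with a median difference of -0.02. RBM24, a splicing factor of muscle, was at 5.98 and 6.20 in PC-3 and at 7.43 and 7.17 in PC-3-BM, and rose by 1.21 (SE 0.13, adjusted p = 0.00535). MBNL2 was at 8.74 and 8.88 in PC-3 and at 9.87 on both PC-3-BM arrays, and rose by 1.06 (SE 0.08, adjusted p = 0.00288), while its paralogue MBNL3 was at 6.06 and 6.22 in PC-3 and at 5.07 and 5.23 in PC-3-BM, and fell by 0.99 (SE 0.10, adjusted p = 0.00487). QKI, an RNA-binding protein that promotes mesenchymal splicing and circular RNA formation in EMT, was at 7.68 and 7.85 in PC-3 and at 8.72 and 8.62 in PC-3-BM, and rose by 0.90 (SE 0.09, adjusted p = 0.00504). These 4 kept their calls without each array in turn. Chosen after their values were seen, RBM47, an epithelial splicing factor, fell by 0.51 (adjusted p = 0.0259), and RBFOX2, a mesenchymal one, differed by 0.27 (adjusted p = 0.0672).

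Genes whose exons are selected by the ESRP proteins had 6 higher, 3 lower and 9 not passing of 18 measured (21 listed), or 50.0% called, with a median difference of 0.16. SLK, a kinase, rose by 0.86 (SE 0.08, adjusted p = 0.0047), FGFR1, a growth factor receptor, rose by 0.85 (SE 0.09, adjusted p = 0.00518), GRHL1, an epithelial transcription factor, rose by 0.82 (SE 0.10, adjusted p = 0.00734) and MPRIP, a myosin phosphatase partner, fell by 0.87 (SE 0.08, adjusted p = 0.00402). SLK, FGFR1 and MPRIP kept their calls without each array in turn, and GRHL1 did not. Chosen after their values were seen, CD44 differed by -0.05 (adjusted p = 0.689) and FGFR2 by 0.03 (adjusted p = 0.868). A probe set sums probes over many exons of a gene, so these values are of whole transcripts and do not show which isoform was made.

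The microRNAs of the miR-200 family are known to repress ZEB1 and ZEB2 and to be repressed by them, and their mature sequences are shown because the seed is the stretch that pairs with target transcripts. Capitals mark the seed, bases 2 to 8 (RefSeq, GRCh38.p14).
hsa-miR-141-3p: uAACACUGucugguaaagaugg
hsa-miR-200a-3p: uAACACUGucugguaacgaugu
hsa-miR-200b-3p: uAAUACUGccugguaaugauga
hsa-miR-200c-3p: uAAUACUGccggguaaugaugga
hsa-miR-429: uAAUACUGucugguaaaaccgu
The first pair shares the seed AACACUG, and the other 3 share AAUACUG. The arrays measured precursor or gene transcripts, not mature microRNAs, and 9 of the 11 measured microRNA genes of the ZEB and SNAI loops lay under the lower quartile in a line. The list held 19 genes, and those not measured included MIR205, MIR34C and MIR135B, the gene of the microRNA that the study follows. Of the 11 measured, 0 were higher and 2 lower, or 18.2% called. MIR200C was at 4.97 and 4.93 in PC-3 and at 4.53 and 4.52 in PC-3-BM, and fell by 0.43 (SE 0.07, adjusted p = 0.0144) at a level under the lower quartile in both lines. MIR9-1 fell by 0.39 (SE 0.10, adjusted p = 0.0491, or 0.0581 with median centring). Both calls were lost when an array was left out. The other family members, chosen after their values were seen, did not pass: MIR200B was at 6.55 and 6.40 in PC-3 and at 6.20 and 6.37 in PC-3-BM (adjusted p = 0.247), and MIR141, MIR429 and MIR200A differed by -0.11, 0.02 and 0.01.

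Beside VIM, other intermediate filament and linker genes had 1 higher, 3 lower and 10 not passing of 14, or 28.6% called, with a median difference of -0.14. NES, which encodes nestin and forms filaments with vimentin, fell by 0.85 (SE 0.09, adjusted p = 0.00536). LMNA, the nuclear lamin A gene, rose by 0.57 (SE 0.07, adjusted p = 0.00771), and PRPH, encoding peripherin, and PLEC, encoding the filament linker plectin, fell by 0.30 (adjusted p = 0.0454) and 0.29 (adjusted p = 0.0458). With median centring these last calls were lost, at 0.0816 and 0.0685, and that of PRPH also with a further quantile normalization (0.0633). NES was the call kept without each array in turn. The antisense genes of ZEB1, ZEB2 and VIM had no 1-symbol probe set and were not analysed here. Over the pathway lists together, 70 of 197 different genes were called, 35.5%, with 30 higher and 40 lower.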

How the data were processed

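Total RNA of 2 PC-3 and 2 PC-3-BM arrays was hybridised to single-colour Affymetrix Human Gene ST arrays. The deposited log2 values were made by the authors with RMA (robust multichip average), a procedure of background correction, quantile normalization and summary of probes per probe set. Versions in the submitters' notes are limma 3.24 and R 3.2, and the genome build is not given in the sources used here. RMA would hide a shift of all transcripts.

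The values were used as deposited. PC-3-BM and PC-3 were compared in limma 3.58.1 under R 4.3.3 with group means, empirical Bayes moderation (2.88 prior and 2 residual degrees of freedom) and Benjamini-Hochberg adjustment over 33297 probe sets. An exact two-sided permutation test of 2 against 2 arrays cannot go below 0.333. The number of arrays limits the precision. Of the probe sets, 19460 had 1 symbol in the platform annotation, 1754 several and 12083 none, and 19429 of the 1-symbol ones were matched to the RefSeq gene table of GRCh38.p14, used for names, chromosome order and sequences.

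Members, lists and tests were chosen with earlier results of these data known. Named were all members, up to 4 called genes of each list with the largest differences, called neighbours with a difference above 1, and the marker lists; genes outside this rule are marked as chosen after their values were seen. Array numbers were not shown to pair the lines. Alternatives were other scalings, filters, moderations and thresholds, an array-number block and leaving out each array.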

Additional observations from a re-analysis of the deposited data

How the results depend on the processing

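Without variance moderation, members called higher and lower were 0 and 0 (3 at an unadjusted p below 0.05), all probe sets called were 13 (9307 unadjusted) and pathway genes called 0. At the thresholds the study states, applied to this fit, the same counts were 0, 0, 17 and 0. Leaving out each array in turn gave 0 to 1 members higher, 0 to 1 lower, 2238 to 3854 probe sets against 7717, and 30 to 39 pathway genes against 70. The members' counts of 1 and 1 held under median centring, quantile normalization, the filter on a mean above 5, adjustment over 1-symbol probe sets, intensity trend, robust moderation and the replicate block, and probe sets called ranged from 6473 to 9004 and pathway genes from 55 to 93. SNAI2 turned to 0.01 with median centring and ranged from -0.06 to 0.02 (without PC-3 replicate 2) when each array was left out, TWIST1 from -0.01 (without PC-3-BM replicate 2) to 0.05, and PRRX1 from -0.08 to 0.00 (without PC-3-BM replicate 2). Median centring moved the split of calls from 3854 higher and 3863 lower to 4212 and 3254, with the median of all differences at 0.011 in place of -0.024. It also gave protein turnover genes 4 higher and 1 lower, against 2 and 1, and filament genes 1 and 1, against 1 and 3; the block gave upstream inputs 4 and 4, against 4 and 7, and epithelial targets 1 and 5, against 0 and 10. With the array number as a replicate block, 6473 probe sets were called, 3352 higher and 3121 lower, with adjusted p of 0.0203 for ZEB1 and 0.0229 for ESRP2. Deviations of same-numbered arrays correlated at -0.0174 over 33297 probe sets, so the numbers were not taken to pair the lines.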
